A study of Mus musculus with 40 samples.

Results

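The 4 week 9 arrays whose titles carry the letters WS were chosen for their titles and set against the 8 arrays of weeks 6 and 15 from the same 4 diets, out of 40 arrays in the series. The labels do not say what WS stands for. The titles and weeks alone chose these arrays, and no measured value entered the choice. The comparison asks how subcutaneous fat samples rich in adipocyte transcripts differ from those of stromal vascular cells.

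C57BL/6J mice, weaned at 3 to 4 weeks of age, received control chow low in fat (LFC), a high-fat high-sucrose diet (HFC), or that high-fat diet with 5 µg or 20 µg of Kal-1, an ethano-botanical formulation (HF5 and HF20). Weeks were counted from day 14 of feeding. The week 9 WS group, the week 6 group and the week 15 group had 1 array of each of the 4 diets, so each group had n = 4. All 12 arrays bear the same tissue label, stromal vascular cells of subcutaneous fat, and the strain and platform were shared by all groups. The week 9 array of the HF75 diet (75 µg of Kal-1) has no WS in its title and is described beside them. Groups of 5 animals were killed every 3 weeks. How many mice contributed to each array is not stated, and none of the 12 arrays shares both its diet and its week with another. The p-values below therefore measure a spread between arrays that are not replicates of 1 condition. Part of it may be technical. For the WS comparison it also holds differences between weeks 6 and 15 and differences in how the diets responded. The number of arrays limits the precision.

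White fat consists of adipocytes, which store triglyceride in a single large lipid droplet, and of the stromal vascular fraction, which holds progenitors, fibroblasts, endothelial cells, pericytes and immune cells, macrophages among them. The fraction is commonly obtained by digesting the tissue with collagenase and spinning it, whereupon adipocytes float and the other cells form a pellet. Enzymatic digestion is also known to induce immediate-early genes and inflammatory cytokines in many tissues within minutes to hours. Adipoq encodes the adipocyte hormone adiponectin, Lep encodes leptin, Pck1 the cytosolic enzyme that makes phosphoenolpyruvate for glycerol synthesis, and Thrsp a nuclear protein tied to lipid synthesis.

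RNA was labelled with Cy3 and hybridised to 1-colour arrays. Levels are log2 intensities relative to the 75th percentile of the same array, so 0 is that percentile. A level reflects the probe as well as the transcript, so levels are compared between arrays and not between genes. On the WS arrays, the 75th percentile intensity was 1344 (LFC), 1719 (HFC), 1542 (HF5) and 1549 (HF20). It ranged from 642 to 1866 on the week 6 arrays and from 916 to 1207 on the week 15 arrays. The median ratio of spot signal to background was 5.64 to 9.45 on the WS arrays and 4.56 to 10.8 on the others. The WS HF20 array had 87.2% of its probes well above background by the flag of the scanner software, against 65.1% to 71.4% on the other WS arrays. The brightest spots were saturated, and their median level was 5.24 to 5.59 on the WS arrays, 5.12 to 6.62 in week 6 and 5.69 to 6.11 in week 15. A gene saturated on all WS arrays has a lower bound for its difference only where no reference array was saturated too. Sizes of genes saturated or at the floor on some arrays are not exact either. Of 988 genes that rose, 28 were saturated on all 4 WS arrays.

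Before any comparison, 1 reference array stood with the WS arrays. The week 15 HF20 array had levels of 5.77 for Adipoq, 2.31 for Lep, 5.76 for Pck1 and 5.40 for Thrsp, all within the range of the WS arrays or less than 0.5 away from it. Its correlation across genes with the 4 WS arrays was 0.955 to 0.972, and with the other 3 week 15 arrays it was 0.890 to 0.910, where genes are not independent replicates. Its title holds no WS. Counts are therefore given with this array in the reference, as the grouping requires, and again without it. Since its own values led to its being left out, the fit without it is no separate test. Every gene named below as called was also called without it, and genes called only without it are named as such. The week 6 arrays stood apart in another way, with levels of 3.26 to 6.67 for the epididymal transcripts Spink8 and Defb28, which lay between -7.41 and -4.76 on the WS arrays.

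All WS arrays were scanned on a single day, on 2 slides. The week 6 arrays shared another scan day, and the week 15 arrays a later one. Among the 12 arrays, each scan day and each slide held arrays of 1 group only, so no value within a batch can be given, and the WS letters, week 9 and the scan day cannot be told apart.

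The 4 adipocyte markers were higher on every WS array than on 7 of the 8 reference arrays. Adipoq was at 5.63 (LFC), 5.26 (HFC), 5.58 (HF5) and 5.52 (HF20) on the WS arrays, with all 4 values saturated, and at 0.04, 1.25 and 5.77 for the lowest, the median and the highest of the reference arrays. Lep, which was not saturated, was at 2.86, 2.64, 2.83 and 3.57 in the same order of diets, and the reference arrays had a lowest level of -5.57, a median of -3.94 and a highest of 2.31. Lep was the 1 marker whose sides did not overlap, since the highest reference value, that of week 15 HF20, lay under the lowest WS value. Pck1 was at 5.64, 5.26, 5.51 and 5.42, saturated throughout, against -0.24, 1.37 and 5.76 for the reference. Thrsp was at 5.58, 4.53, 4.82 and 5.17, against -0.52, 0.24 and 5.40. For Adipoq, Pck1 and Thrsp, the overlap came from the week 15 HF20 array, whose level lay at or above those of the WS arrays or among them.

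Lep rose by 6.36 (SE 0.92, n = 4 and 8, limma adjusted p = 0.0399), an 81.9-fold difference. Thrsp rose by 4.11 (SE 0.85, adjusted p = 0.0400). The saturated markers rose as well, with fitted differences of 3.83 for Adipoq (SE 0.91, adjusted p = 0.0433) and 3.84 for Pck1 (SE 0.79, adjusted p = 0.0400), which are not bounds, since both were saturated on week 15 HF20 too. Without the week 15 HF20 array (n = 4 and 7), the differences were 7.002 for Lep (SE 0.45), 4.74 for Thrsp (SE 0.34), at least 4.47 for Adipoq (SE 0.44) and at least 4.37 for Pck1 (SE 0.44), with adjusted p-values of 7.77e-05 to 4.9e-04 in limma. That array was set apart by its levels of these same 4 markers. The smaller SEs and p-values follow from leaving it out and are no further test. These are bulk samples, in which more adipocytes and more RNA per adipocyte cannot be told apart. The summed linear level of the 4 markers was 106 to 155 on the WS arrays, 2.88 to 11.7 on the 7 other reference arrays and 156 on week 15 HF20.

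**Figure D1:**
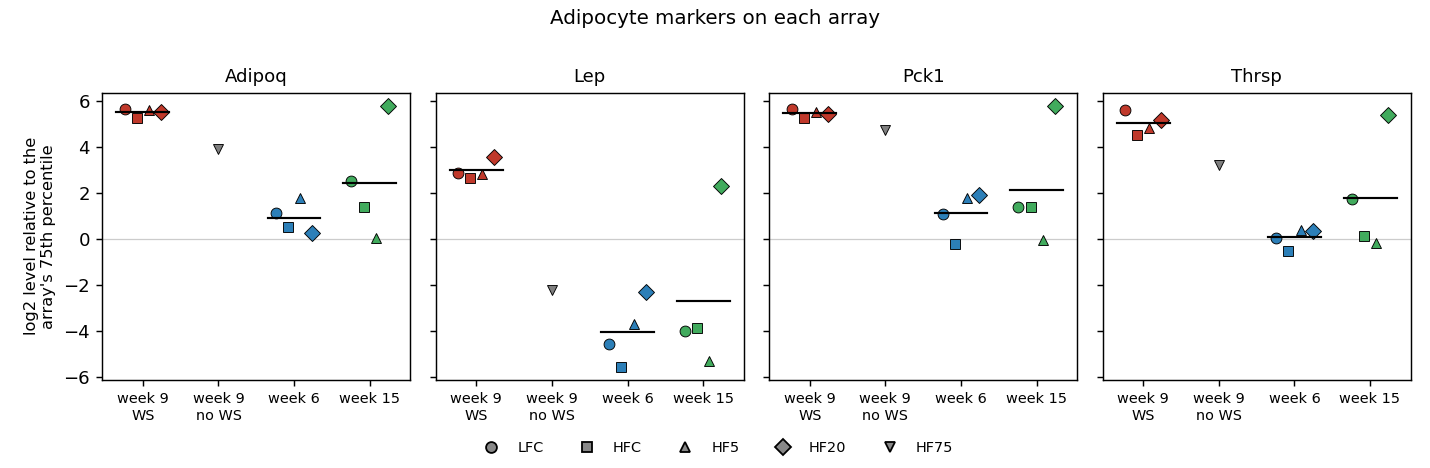
Level of each adipocyte marker on each array (log2 intensity, 0 = 75th percentile), by group on the horizontal axis, with diets as symbols and the mean of each group of 4 as a bar. The WS arrays had Lep levels from 2.64 to 3.57 and week 15 HF20 had 2.31, while the other 7 reference arrays lay between -5.57 and -2.29.

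Defining markers of the labelled tissue were present on the WS arrays as well. Dcn and Col1a2, which encode the proteoglycan decorin and a chain of type I collagen, were saturated on all 12 arrays, so no fold can be given for either. Among the macrophage genes, C1qc, a chain of complement C1q, was at 3.25, 3.73, 2.92 and 3.35 on the WS arrays, with a median of 3.26 on the reference arrays. The macrophage surface markers Adgre1 and Mrc1 lay between 1.43 and 2.65 on the WS arrays, and neither passed the test. The WS samples thus held transcripts of stromal and macrophage genes beside those of adipocytes.

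Across all genes, 1592 of 22234 tested differed by at least 2-fold with a Benjamini-Hochberg adjusted p under 0.05 in limma, which is 7.16% of genes. Of these, 988 rose (4.44%) and 604 fell (2.72%). The smallest adjusted p was 0.0282, that of Fos, and 6762 genes had an unadjusted p under 0.05. Sides that did not overlap were found in 592 genes higher on the WS arrays (2.66%) and 373 lower (1.68%), and 227 and 181 of these were also called. Without the week 15 HF20 array, 4079 of 22116 genes were called (18.4%), with 2054 higher (9.29%) and 2025 lower (9.16%), and these included 987 of the 988 and all of the 604. The called genes lay close to the threshold: no gene was called when any of the week 6 arrays, the other 3 week 15 arrays or the WS HF5 array was left out, 1 without WS LFC and 2 without WS HFC, against 2341 without WS HF20. With the slide or the scan day as a random block beside the diet, limma called 0 genes. The consensus correlation within slides was 0.772 and within scan days 0.251. Among the arrays fitted, only the WS arrays and week 15 HFC and HF5 shared a slide with another, so the slide value rests on few pairs. Week 6 and week 15 formed 1 side, so both values also take in differences between these weeks. Against week 6 alone, 5425 genes were called, and against week 15 alone none were, unless its HF20 array was left out, which gave 5312.

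The largest rises among called genes with a RefSeq match whose sides did not overlap were Lep, Mogat1, Prr32, Gpat3, Kcnj14, Lrrc39, Gpt, Igfals, Trarg1 and Adhfe1. Mogat1, an acyltransferase that makes diacylglycerol, was at 2.13, 2.05, 2.59 and 2.19 on the WS arrays, against -5.02, -4.55 and 1.95 for the lowest, the median and the highest reference array. It rose by 5.88 (SE 1.08, adjusted p = 0.0399). Gpat3, which adds the first acyl chain to glycerol 3-phosphate, was at 4.37, 4.08, 4.48 and 4.65 on the WS arrays and had a reference median of -1.34. Its rise was 5.18 (SE 0.92), so that 2 enzymes of triglyceride assembly stood among the 10. Gpt, the alanine aminotransferase that links alanine to pyruvate, rose by 4.71 (SE 0.90), and Trarg1, a membrane protein that moves with the glucose transporter GLUT4, by 4.48 (SE 0.89). Adhfe1, an alcohol dehydrogenase of mitochondria, rose by 4.43 (SE 0.80). Prr32, the potassium channel gene Kcnj14, Lrrc39 and Igfals, whose product binds insulin-like growth factors in a complex, rose by 5.79 (SE 0.88), 5.09 (SE 0.79), 4.89 (SE 1.03) and 4.49 (SE 0.77). Another probe of Lrrc39 did not pass (0.57, SE 0.31), while its remaining probes were called higher, with 3.32 and 3.42. Prr32, Kcnj14 and Igfals were well above background on only 1, 2 and 2 of the 8 reference arrays, so their differences are taken mostly against the floor and their order among the 10 has no meaning. On the week 15 HF20 array all 10 lay closer to the WS arrays than on any other reference array, being the highest reference value of each, and without that array their rises ranged from 4.91 (Adhfe1) to 7.002 (Lep).

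Of the 10 tested adipokines and other secreted proteins of fat cells, 6 rose and 0 fell, beside 4.44% higher and 2.72% lower among all genes, and the list's median difference was 2.10, beside 0.03 over all genes tested. The 6 were Adipoq, Lep, Retn, Rbp4, Vegfa and Fgf21. Retn, which encodes resistin, and Rbp4, the retinol carrier, were saturated on all WS arrays. Cfd, the complement factor adipsin, was also saturated there, at 5.25 to 5.58, with a reference median of 4.23 and a difference of 1.34 (SE 0.61) that did not pass the test and passed without week 15 HF20 (at least 1.68, SE 0.48). Angptl4, an inhibitor of lipoprotein lipase that is made under fasting and hypoxia, was saturated on the WS arrays and on 4 reference arrays, so its difference of 0.02 is not a measure of change. Serpina12 was well above background on no array and was not tested. When week 15 HF20 was dropped, 7 of the 10 were called higher, beside 9.29% of all genes, and the median was 2.41. The lists below stand beside the same shares of all genes. These are 4.44% higher and 2.72% lower with all arrays, and 9.29% and 9.16% without week 15 HF20.

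Proteins of the lipid droplet and of lipolysis followed, with 9 of 15 higher, 0 lower and a median of 2.95. Adrb3, the adipocyte's receptor for noradrenaline that starts lipolysis, was saturated on all WS arrays, the lowest at 5.22, and had a reference median of -1.99, with a fitted rise of 6.51 (SE 1.21, adjusted p = 0.0399). It was saturated on week 15 HF20 as well, and without that array its rise was at least 7.43 (SE 0.35). Plin1, which coats the droplet of white adipocytes, Cidec and Cidea, which drive droplets to fuse, and the lipases Pnpla2 and Lipe all rose. Lipe, which was not saturated, rose by 4.17 (SE 0.83), and Plin1, saturated on the WS arrays and week 15 HF20, by 5.51 (SE 1.09), or by at least 6.33 (SE 0.32) without that array. Cav1, the coat protein of caveolae, was saturated on the WS arrays and gave -0.04 (SE 0.27), while another probe of Cav1 was called higher, with a difference of 1.40. Mgll, the lipase of monoacylglycerol, was saturated too and gave 1.11 (SE 0.48), which passed only without week 15 HF20 (at least 1.34, SE 0.40). On the 7 reference arrays other than week 15 HF20, the mean level of the list lay between 0.35 and 1.00, against 3.89 to 3.93 on the WS arrays and 4.02 on week 15 HF20. With that array left out, 12 genes of the list were called higher and 1, Hilpda, lower.

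Fatty acid and triglyceride synthesis gave 10 of 21 genes higher and 0 lower, all 21 differences were above 0, and the median was 2.93. Agpat2, the acyltransferase that makes phosphatidic acid, was at 3.44, 2.62, 2.35 and 2.99 on the WS arrays and at -2.78, -1.67 and 2.23 for the lowest, the median and the highest of the reference. It rose by 4.19 (SE 0.70, adjusted p = 0.0399). Acaca and Acacb, which make malonyl-CoA, Me1, which makes NADPH, Pcx, Lpin1, Dgat1, Dgat2, Scd1 and Thrsp were the other genes that rose. Fasn, the fatty acid synthase, was saturated on all WS arrays, and on 2 reference arrays, so its difference of 0.94 (SE 0.36), which did not pass, is no measure of change, and another probe of Fasn was called higher, with 4.30 (SE 1.02). Srebf1, a regulator of lipid synthesis, gave 1.49 (SE 0.44) and passed only without week 15 HF20 (at least 1.72, SE 0.36). The LFC array stood above the other WS arrays for this list, with a mean level of 3.56 against 2.22 to 2.33. In the fit with 7 reference arrays, 15 of 21 were called higher.

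Uptake and binding of fatty acids had 3 of 11 genes higher, 0 lower and a median of 1.55. Acsl1, which activates long fatty acids with coenzyme A, was saturated on all WS arrays and on week 15 HF20, so its fitted rise of 2.64 (SE 0.60) is no bound, and it rose by at least 3.00 (SE 0.43) without week 15 HF20, and the transporter Slc27a1 and the receptor Vldlr were the others. Lpl, the lipase that frees fatty acids from lipoproteins, was saturated on the WS arrays at 5.24 to 5.58 and had a reference median of 3.51, with a difference of 1.92 (SE 0.61, adjusted p = 0.0777). It passed without week 15 HF20 (at least 2.28, SE 0.42), and another probe of Lpl was called higher with all arrays, with 3.33 (SE 0.76). Fabp4, a fatty acid carrier of adipocytes and macrophages, was saturated on 4 WS and 7 reference arrays, and its probes differed in direction. Without week 15 HF20, 6 of 11 were called higher.

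Among adipogenic transcription factors, 4 of 13 rose (Cebpa, Klf15, Nr1h3 and Ppargc1b), 1 fell and the median was 1.25. Cebpa, which sustains the mature adipocyte, was at 3.54, 3.24, 3.51 and 3.76 on the WS arrays, against a reference median of -0.74, and rose by 3.76 (SE 0.79, adjusted p = 0.0400). Cebpd, which acts early in adipogenesis and also responds to inflammatory signals, fell by 1.81 (SE 0.28, adjusted p = 0.0399), with WS levels of 2.47 to 4.20 against a reference median of 5.37, and saturation on 3 reference arrays makes this a minimum. The related factors of the same family thus moved in opposite directions on the WS arrays. Pparg, the master regulator of adipogenesis, was at 4.71 to 5.22 on the WS arrays, with a difference of 3.30 (SE 0.90, adjusted p = 0.0545) that missed the threshold and passed without week 15 HF20 (3.82, SE 0.67, adjusted p = 0.00557). Rxra gave 1.25 (SE 0.51) and did not pass in either fit, while another probe of Rxra was called higher, with 1.86 (SE 0.41). In all, 7 genes of the list were called higher and 1 lower without that array.

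Insulin signalling and glucose uptake had 7 of 15 genes higher and 1 lower, with a median of 1.55. Slc2a4, which encodes the insulin-responsive transporter GLUT4, was at 5.57, 4.66, 4.87 and 5.09 on the WS arrays against a reference median of 2.10, and rose by 2.58 (SE 0.54, adjusted p = 0.0400). The kinase Akt2, the adaptors Irs1 and Irs3, hexokinase Hk2, the phosphodiesterase Pde3b and Trarg1 also rose. Irs2, an adaptor of the insulin receptor, fell by 1.66 (SE 0.37, adjusted p = 0.0413), with WS levels of at most 2.36 against a reference median of 4.10, so that adaptors of the receptor moved both ways. When week 15 HF20 was dropped, the counts were 10 higher and 2 lower.

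The breakdown of branched-chain amino acids was the list with the largest share of calls among those that rose, apart from the 4 markers, with 13 of 16 higher, 0 lower and a median of 2.15. Adipose tissue is known to burn leucine, isoleucine and valine as adipocytes mature. Hibch, an enzyme of valine breakdown, was at 4.69, 4.20, 4.25 and 4.39 on the WS arrays and at 0.56, 0.88 and 4.69 for the lowest, the median and the highest of the reference, and it rose by 2.98 (SE 0.57, adjusted p = 0.0400). Mmut, the mutase that feeds propionyl carbons into the citric acid cycle, rose by 2.05 (SE 0.43). Aldh6a1, another enzyme of valine breakdown, had a difference of 2.17 (SE 0.68, adjusted p = 0.0748), and together with Bckdha and Mccc2 it was among the 3 that did not pass. In the fit with 7 reference arrays, all 16 were called higher, with a median of 2.48. The mean level of the list was 2.52 to 2.82 on the WS arrays, -0.31 to 0.61 on 7 reference arrays and 2.94 on week 15 HF20.

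Mitochondrial oxidation gave 8 of 21 higher and 0 lower, with a median of 1.40. Cpt2, which returns fatty acids to coenzyme A inside the mitochondrion, was at 5.02, 5.06, 5.06 and 5.10 on the WS arrays against a reference median of 1.91, and rose by 2.74 (SE 0.56, adjusted p = 0.0400). Its WS levels were close to each other and far above those of the 7 arrays from 1.47 to 2.41. Atp5b, a subunit of the ATP synthase, and Mdh2, the malate dehydrogenase, were saturated on all WS arrays, with differences of -0.24 (SE 0.24) and -0.18 (SE 0.24) that measure no change. A further probe of Atp5b was called higher. Without week 15 HF20, 16 of 21 were called higher.

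Of 10 genes of brown and beige fat, 1 rose and 1 fell, beside 4.44% higher and 2.72% lower among all genes, and the list's median was 0.22. Cidea rose by 5.02 (SE 0.90) and Dio2, which activates thyroid hormone, fell by 1.52 (SE 0.38, adjusted p = 0.0460). The mean level of the list was -1.62 to -0.84 on the WS arrays and -2.74 to -1.65 on the reference arrays. The sides all but met, with WS HF20 at -1.619 and week 15 HF20 at -1.646. Of the 10 differences, 4 were below 0, so the list did not shift as a whole. Cox7a1, a muscle and brown fat subunit of cytochrome oxidase, was at 4.78 on WS LFC and at 2.12 to 2.68 on the other WS arrays, and did not pass (1.86, SE 0.84). Among the reference arrays it was highest on week 6 LFC (4.25) and week 15 HF20 (3.51). WS LFC, week 6 LFC and week 15 HF20 also had the highest summed levels of the skeletal muscle list, 525, 885 and 298. Whether this bears on Cox7a1 was not tested. Of the adrenergic and adenosine receptors, Adrb1, Adrb3 and Adora1 rose, beside 4.44% higher among all genes, 0 of 13 fell and the median was 0.61. Adora1, through which adenosine restrains lipolysis, rose by 3.52 (SE 0.88, adjusted p = 0.0457), and its WS levels of 2.27 to 3.18 lay against a reference median of -0.97. Another probe of Adora1 did not pass (2.91, SE 0.79), and a further one was called higher (1.63, SE 0.36). When week 15 HF20 was dropped, the counts were 2 higher and 1 lower for the former list and 4 higher and 3 lower for the latter. Among all genes, 9.29% were called higher and 9.16% lower in that fit.

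**Figure D2:**
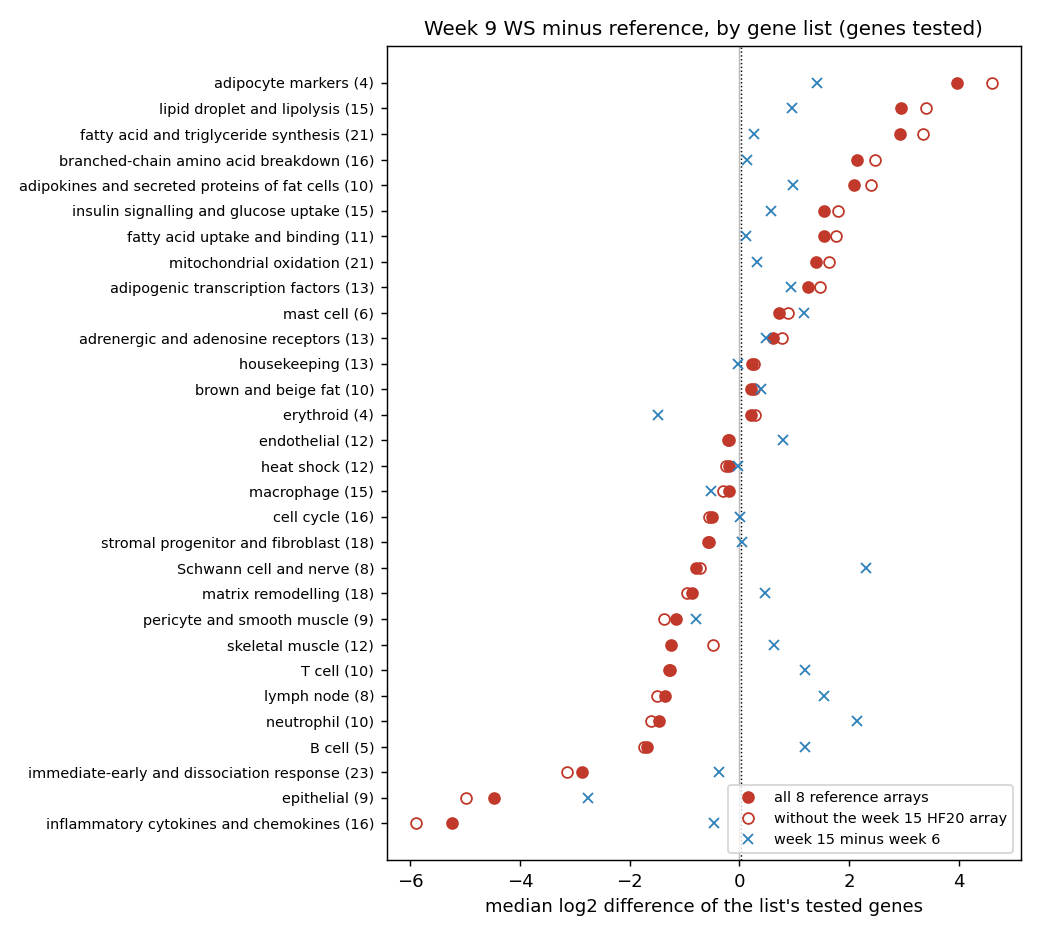
Median over the tested genes of each list (number in brackets) of the log2 difference between the WS arrays and the reference, with all 8 reference arrays as filled circles and without week 15 HF20 as open circles; crosses give week 15 minus week 6. The filled circles ran from -5.23 for inflammatory cytokines and chemokines to 3.98 for the adipocyte markers, and the open circles from -5.90 to 4.60 for the same lists. The dotted line marks the median of all genes with all 8 reference arrays, 0.03.

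Among the genes that fell, the immediate-early and dissociation response list had 20 of 23 members lower and 0 higher, with a median of -2.88. Fos, a subunit of the AP-1 transcription factor, was at -2.35 (LFC), 2.05 (HFC), -2.44 (HF5) and -1.53 (HF20) on the WS arrays and at 2.89, 5.49 and 5.85 for the lowest, the median and the highest of the reference. It fell by 6.11 (SE 0.66, adjusted p = 0.0282), and its sides did not overlap even with week 15 HF20, the lowest reference array, included. Nfkbia, the inhibitor of NF-kappaB that NF-kappaB itself induces, fell by 1.98 (SE 0.29), also without overlap, and Klf4, a zinc finger factor, by 1.57 (SE 0.27). Both were saturated on 5 reference arrays, so these are the smallest sizes their falls can have. Egr1, Atf3, Jun, Dusp1 and the 3 Nr4a genes fell too, and Fosl1, Egr2 and Klf6 did not pass. Within the WS group the HFC array stood apart, with a mean level of 1.68 for the list against -0.28 to 0.04 on the other 3. Reference arrays lay between 2.85 and 4.30, except week 15 HF20 at 1.07. Without the latter, all 23 were called lower and the median was -3.15.

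Inflammatory cytokines and chemokines had the lowest median of any list, -5.23, with 11 of 16 tested members lower and 0 higher. Il6 was at -5.75, -3.61, -4.47 and -6.13 on the WS arrays and at -4.72, 2.88 and 6.09 for the lowest, the median and the highest of the reference, where the lowest was week 15 HF20. It fell by 7.61 (SE 1.31, adjusted p = 0.0399). Ccl2, the chemokine that draws monocytes, was at 2.33 on WS HFC and lower on the other WS arrays against a reference median of 4.89, and fell by 3.45 (SE 0.85, adjusted p = 0.0449). The neutrophil chemokine Cxcl2 fell, with a fitted difference of -7.34 (SE 1.44). It was well above background on no WS array and not on week 15 HF20, so this is no bound. Tnf, Il1b, Ptgs2, Ccl3, Ccl4, Cxcl1, Csf3 and Lif fell as well. Csf1, the growth factor of macrophages, did not pass, with -0.78 (SE 0.37) and a WS range of 1.01 to 1.89. Nos2 and Cxcl5 were not tested. In the fit with 7 reference arrays, 13 of 16 were called lower and the median was -5.90. These counts stood beside the rise of the adipocyte lists on the same arrays, and whether the way the samples were prepared had a part in either was not tested.

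The largest falls among called genes with a RefSeq match whose sides did not overlap were Krt8, Krt18, Plet1, Wfdc2, Fos, Ltf, Lcn2, BC021767, Ramp3 and Dapl1. Krt8 and Krt18, the paired keratins of simple epithelia, were at -7.41 to -5.33 and at -4.54 to -2.96 on the WS arrays, with reference medians of 4.28 and 4.33. They fell, with fitted differences of -9.38 (SE 1.76) and -7.70 (SE 1.28), each with an adjusted p of 0.0399. Krt8 was at the floor on 2 WS arrays and saturated on 2 reference arrays, and Krt18 was saturated on 1, so these sizes are not exact. The week 15 arrays lay in between, with Krt8 at 1.96, -1.83, 3.46 and -2.49 for LFC, HFC, HF5 and HF20, and Krt8 fell from week 6 to week 15 by 5.41 (SE 1.05). Plet1, a surface protein of epithelial progenitors, Wfdc2, a secreted protein of epithelia, and Lcn2, which binds iron siderophores, fell by 6.67 (SE 1.41), 6.31 (SE 1.40) and 5.82 (SE 1.26). Ltf, the iron-binding lactoferrin of neutrophil granules and secretions, fell by 5.84 (SE 0.97). The remaining 3 were BC021767, Ramp3, a partner of the calcitonin receptor family, and Dapl1. BC021767 was well above background on no WS array, so its fall of at least 5.27 (SE 1.25) has no rank among the 10. Another probe of Plet1 did not pass (-4.20, SE 1.41). Ramp3 fell by 5.26 (SE 1.13) and Dapl1 by 5.03 (SE 1.15). Lcn2 and Dapl1 were well above background on 2 of the 4 WS arrays and Wfdc2 on 3, so their sizes and order are not exact. Without week 15 HF20 all 10 were called lower, with differences from -10.32 (Krt8) to -5.67 (Dapl1).

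The epithelial list as a whole had 4 of 9 tested members lower (Krt8, Krt18, Krt14 and Cdh1) and 0 higher, with a median of -4.48, and without week 15 HF20 all 9 were called lower. Its mean level was -5.72 to -5.52 on WS LFC, HFC and HF5, not far above their detection floors of -7.41 to -6.60. The sizes and the median therefore rest partly on the floor and are not exact. Its summed linear level was 0.23 (LFC), 0.32 (HFC), 0.32 (HF5) and 0.73 (HF20) on the WS arrays. It was 74.6 to 222 on the week 6 arrays, 2.23 to 45.3 on the week 15 arrays of LFC, HFC and HF5, and 1.26 on week 15 HF20. By this sum, which the brightest genes carry, week 6 lay above week 15 and both above the WS arrays. By mean log2 level, WS HF20 (-3.91) lay just under week 15 HF20 (-3.84), and weeks 6 and 15 overlapped, with week 6 HFC (-0.38) under week 15 HF5 (1.004). From week 6 to week 15, 3 of the 9 genes fell. The milk protein Csn2 was well above background on no array.

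Of 18 stromal progenitor and fibroblast genes, 1 fell and 0 rose, beside 2.72% lower among all genes, while 17 of the 18 differences were below 0 and the median was -0.57. The mean level of the list was 2.15 to 2.73 on the WS arrays, 2.26 on week 15 HF20 and 2.71 to 3.54 on the other reference arrays. Pdgfra, the receptor that marks adipocyte progenitors and fibroblasts, was at 0.10, 0.98, 0.29 and 0.43 on the WS arrays against a reference median of 1.74, and fell by 1.31 (SE 0.29, adjusted p = 0.0414), though another probe of Pdgfra did not pass (-1.26, SE 0.47). When week 15 HF20 was dropped, 4 were called lower, beside 9.16% of all genes. Matrix remodelling had 5 of 18 genes lower (Timp1, Timp2, Adamts1, Adamts4 and Spp1), 0 higher and a median of -0.87. Adamts4, a protease of aggrecan that inflammatory signals induce, fell by 4.19 (SE 0.78), and the protease inhibitor Timp2, saturated on 6 reference arrays, by 1.11 (SE 0.23). Timp3 did not pass (-0.43, SE 0.38). In the fit with 7 reference arrays, 6 were called lower, beside 9.16% of all genes.

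Of 15 macrophage genes, only Cd14 was called, beside 2.72% lower among all genes, while 12 of the 15 differences were below 0 and the median was -0.20. Cd14, the co-receptor for bacterial lipopolysaccharide, was at -0.02, 0.79, 0.62 and 0.53 on the WS arrays against a reference median of 3.44, and fell by 2.99 (SE 0.61, adjusted p = 0.0400). Cd14 was again the only macrophage gene called without week 15 HF20. C1qc differed by less than 0.01 (SE 0.31), and Lyz2, lysozyme of myeloid cells, was saturated on 4 WS and 7 reference arrays. The summed level of the list was 85.5 to 96.2 on the WS arrays, 91.5 to 230 in week 6 and 95.1 to 165 in week 15.

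Of 12 endothelial genes, 1 fell and 0 rose, with a median of -0.19. Single calls in lists of this size stand beside 2.72% lower among all genes and do not mark the list as a whole. Vwf, the clotting factor stored in endothelial cells, fell by 2.07 (SE 0.47, adjusted p = 0.0421), from a reference median of 5.36 to WS levels of 2.45 to 3.52. Robo4 and Cldn5, a guidance receptor and a tight junction protein of endothelium, did not pass, with 0.55 (SE 0.49) and -0.24 (SE 0.37). Pericyte and smooth muscle genes had 1 of 9 lower, 0 higher and a median of -1.15. Cnn1, the calponin of smooth muscle, fell by 3.83 (SE 0.99, adjusted p = 0.0481), and the contractile genes Acta2 and Tagln, each saturated on 7 reference arrays, gave -1.27 (SE 0.56) and -1.15 (SE 0.42) and passed only without week 15 HF20. Without it, 4 pericyte genes were called lower and 1 higher, and 1 endothelial gene lower, beside 9.16% lower and 9.29% higher among all genes.

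Lymphoid lists differed in their calls. T cell genes (10 tested) and B cell genes (5 tested) had 0 calls in limma either way, with and without week 15 HF20, and medians of -1.27 and -1.68. Unadjusted p-values under 0.05 were held by 6762 genes in the whole fit. Cd5, Cd3d, Cd79b and Ms4a1 lay between -4.52 and -0.79 on the WS arrays, and on the reference arrays their highest levels, 2.65 to 3.35, came from week 15 HFC. Of 8 lymph node genes, 2 fell, beside 2.72% lower among all genes, 0 rose and the median was -1.36. Ccl19 and Cxcr5 were these, and fell by 3.06 (SE 0.59) and 3.06 (SE 0.76). Ltb, a lymphotoxin subunit, gave -1.19 (SE 0.64). Of 10 neutrophil genes, Ltf alone fell, beside 2.72% lower among all genes, the median was -1.46, and S100a8 and S100a9, the calgranulins, gave -2.58 (SE 1.098) and -2.82 (SE 0.92) without passing. The lymph node and neutrophil counts were the same without week 15 HF20, where 9.16% of all genes were called lower.

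Mast cell, erythroid, skeletal muscle, Schwann cell and cell cycle genes had 0 calls in limma on either side. Their medians were 0.72 (6 mast cell genes), 0.22 (4 erythroid genes), -1.25 (12 muscle genes), -0.78 (8 Schwann cell and nerve genes) and -0.49 (16 cell cycle genes). The mast cell proteases Cma1 and Mcpt4 gave 0.72 (SE 0.50) and 0.72 (SE 0.63). Alas2 and Hba-a1 of the red cell lineage gave 0.14 (SE 0.77) and 0.60 (SE 0.49), and the proliferation genes Pcna and Mki67 gave -0.46 (SE 0.21) and -0.98 (SE 0.36). Muscle genes varied among the WS arrays: Acta1, actin of skeletal muscle, was at 0.60, 3.24 and 1.08 on HFC, HF5 and HF20 and saturated on WS LFC, and Myl1, a myosin light chain, was at 5.54 and at 3.62, 3.25 and 3.76. The summed level of the muscle list was 525 on WS LFC and 14.7 to 26.7 on the other 3 WS arrays, and the week 6 LFC and week 15 HF20 arrays had 885 and 298. S100b and Pmp22 of Schwann cells gave 1.28 (SE 1.18) and -0.19 (SE 0.42). Without week 15 HF20, 2 Schwann cell genes and 1 cell cycle gene were called lower, beside 9.16% of all genes.

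Heat shock genes had 1 of 12 lower, Hspa5, the chaperone of the endoplasmic reticulum, which was saturated on 3 reference arrays and fell by 1.13 or more (SE 0.23), and a median of -0.19, where the 1 call again stands beside 2.72% lower among all genes. Hspa8 and Hsp90aa1, chaperones of the cytosol, gave -0.46 (SE 0.22) and 0.03 (SE 0.19). When week 15 HF20 was dropped, 3 were called lower and 1 higher, beside 9.16% lower and 9.29% higher among all genes. Of 13 housekeeping genes, Sdha rose by 1.57 (SE 0.39), which is a mitochondrial gene of the citric acid cycle, beside 4.44% higher among all genes, 0 fell and the median was 0.24. Without that array, 2 were called higher, beside 9.29% of all genes. Rplp0 and B2m were saturated on all WS arrays, and B2m had probes that differed in direction.

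**Figure D3:**
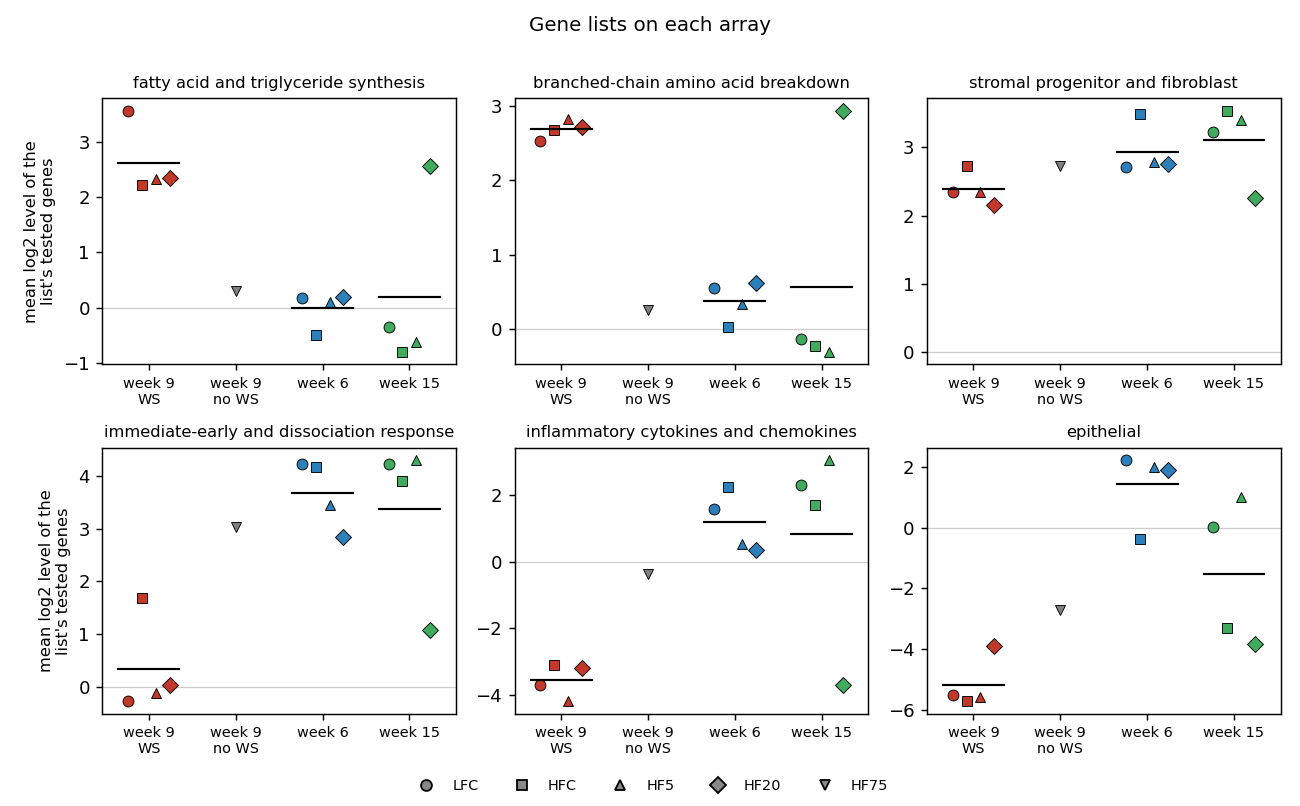
Mean log2 level of the tested genes of 6 lists on each array (0 = 75th percentile), by group on the horizontal axis, with diets as symbols and the mean of each group of 4 as a bar. For branched-chain amino acid breakdown the WS arrays lay between 2.52 and 2.82 and week 15 HF20 at 2.94, and for inflammatory cytokines and chemokines the WS arrays lay between -4.20 and -3.12 and week 15 HF20 at -3.70.

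The reference weeks differed from each other, which is the background against which the WS difference is read. Between week 15 and week 6, 2773 of 22234 genes were called (12.5%), with 1041 higher in week 15 (4.68%) and 1732 lower (7.79%), and the smallest adjusted p was 3.16e-06. Spink8, Defb28 and Crisp1, secreted proteins of the epididymis that were chosen after their values were seen, had fitted differences of -12.35, -12.27 and -9.859. These sizes are not exact, since each gene was saturated on 2 week 6 arrays and not well above background on 3, 4 and 2 of the 4 week 15 arrays. On the WS arrays they lay near the detection floor, apart from Defb28 on HF20 at -4.76, and the difference from the whole reference did not pass for any of them (Spink8 -6.36, SE 3.51). In the fit with 7 reference arrays, Crisp1 alone of these was called lower (-8.42, SE 2.56, adjusted p = 0.0468). Of the lists above, branched-chain amino acid breakdown, immediate-early genes and cytokines had 0 calls between weeks 15 and 6 in limma, where 6657 genes had an unadjusted p under 0.05, with medians of 0.14, -0.36 and -0.46. The epithelial list had 3 lower. Other lists did differ between the weeks, with 4 of 13 adipogenic transcription factors, 3 of 11 genes of fatty acid uptake, 5 of 12 endothelial genes and 5 of 8 Schwann cell genes higher in week 15. With weeks 6 and 15 as levels of their own in the model, 3862 genes differed between the WS arrays and the mean of both weeks, and these held all 1592 called genes.

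The WS difference was compared between the low-fat diet and the 3 high-fat diets. In limma, 0 of 22227 genes were called (0%), 435 had an unadjusted p under 0.05, and the smallest adjusted p was 0.653. The low-fat side rests on 1 WS array and 2 reference arrays, which are assumed to vary like the others, and in simulated data none of 100 genes changed by 3 log2 units was called, so the absence of calls carries little information. The largest differences, none of which passed, were those of the muscle genes Myom2 (9.42, SE 3.74) and Myot (8.76, SE 3.53), which were high on WS LFC, at 5.55 and 4.04, and low on the other WS arrays. In the opposite direction Agr2, a protein folding enzyme of secretory epithelia, had -8.05 (SE 3.20). These genes were chosen after their values were seen. For Lep the difference between diets was 1.07 (SE 2.21).

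The HF75 array of week 9, which has no WS in its title, shared the week with the WS arrays. For most called genes that rose it lay nearer the reference mean, though not for Adipoq, Pck1 and Thrsp. Each called gene was placed between the mean of the reference arrays and the mean of the WS arrays. Of 986 called genes that rose and had a value there, 58 (5.88%) were nearer the WS mean, with a median place of -0.01 on a scale where 0 is the reference mean and 1 the WS mean. Of the 604 that fell, 238 (39.4%) were nearer the WS mean, with a median place of 0.32. That reference mean includes week 15 HF20. In the fit without it, 12.8% of the higher genes and 54.0% of the lower genes were nearer the WS mean. The median places were then 0.12 and 0.57. Its marker levels were 3.92 for Adipoq, -2.23 for Lep, 4.71 for Pck1 and 3.21 for Thrsp, between the WS arrays and most reference arrays. Adipoq, Pck1 and Thrsp were nearer the WS means (5.50, 5.46 and 5.03) than the reference means (1.67, 1.62 and 0.91). Lep was nearer its reference mean (-3.38) than its WS mean (2.97). The cytokine list was at -0.38 and the immediate-early list at 3.04 on this array. Its B cell and lymph node lists summed to 39.1 and 68.8, against 0.41 to 0.97 and 2.65 to 2.83 on the WS arrays. It is 1 array of another dose, so no test was made.

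The week 15 HF20 array was placed in the same way with the genes called without it. It had been left out because its levels resembled those of the WS arrays, so a place near the WS mean follows from that choice. Its levels also entered the choice of the probe for each gene. Its place is therefore a description and no separate test. Of 2054 higher genes, 96.0% were nearer the WS mean on week 15 HF20, and of 2025 lower genes 92.6%, with median places of 1.05 and 1.06. Among the other arrays of weeks 0 to 18 outside the fit, 2 had more than 90% nearer the WS mean in both directions, LFC and HF20 of week 12, and neither has WS in its title.

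**Figure D4:**
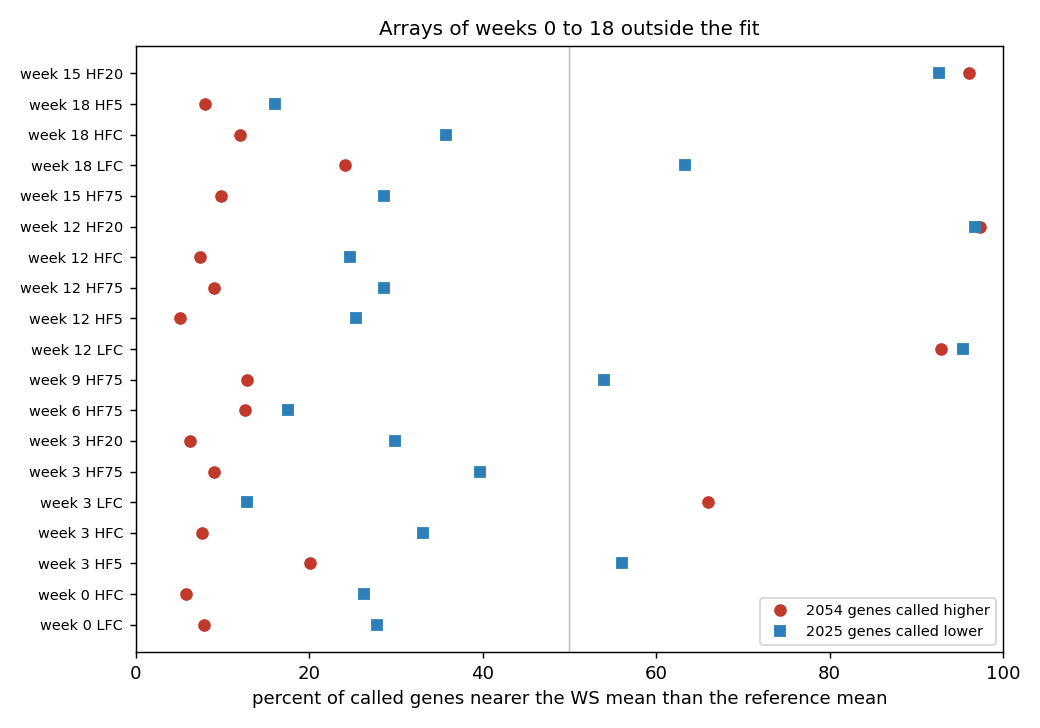
For arrays of weeks 0 to 18 outside the fit, the percent of genes called in the WS comparison (fit without week 15 HF20) that lay nearer the WS mean than the reference mean, with 2054 higher genes as circles and 2025 lower genes as squares. Week 15 HF20 (96.0% and 92.6%), week 12 HF20 (97.3% and 96.7%) and week 12 LFC (92.8% and 95.4%) lay far to the right, and week 9 HF75 had 12.8% and 54.0%. The week 3 LFC array had only 17.2% of its probes well above background, so its place cannot be read.

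Promoters are shown for Lep, the marker with the largest rise and no saturation, for Adipoq, and for Fos, the gene with the smallest adjusted p. The sequences run from 250 bases before to 50 after the start of the gene, from RefSeq on GRCm38.p6, and were searched on both strands for TTGCNNAA (the C/EBP motif), TGACGTCA (the cyclic AMP response element) and TATAAA (the TATA box), with matches in capitals. The Lep promoter (chr6:29059971-29060270, plus strand) holds TTGCGCAA starting at -55, the Fos promoter (chr12:85473640-85473939, plus strand) holds TATAAA starting at -33, and that of Adipoq (chr16:23146286-23146585, plus strand) holds none of the 3. Of 32851 mouse promoters of this length, 10.8% hold TTGCNNAA, 1.79% TGACGTCA and 13.6% TATAAA. Of 850 promoters of genes that rose, 9.88% hold TTGCNNAA, 2.82% TGACGTCA and 8.47% TATAAA. Of 494 of genes that fell, the shares are 9.11%, 3.64% and 12.3%, and of the 17078 promoters of genes tested 9.36%, 2.57% and 9.73%. A match describes the letters only.
Lep: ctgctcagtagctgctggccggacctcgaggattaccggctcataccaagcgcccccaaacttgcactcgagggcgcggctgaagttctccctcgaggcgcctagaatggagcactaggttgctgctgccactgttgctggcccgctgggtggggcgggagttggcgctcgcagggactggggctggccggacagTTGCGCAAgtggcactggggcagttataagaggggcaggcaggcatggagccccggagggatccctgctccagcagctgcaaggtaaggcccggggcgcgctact
Adipoq: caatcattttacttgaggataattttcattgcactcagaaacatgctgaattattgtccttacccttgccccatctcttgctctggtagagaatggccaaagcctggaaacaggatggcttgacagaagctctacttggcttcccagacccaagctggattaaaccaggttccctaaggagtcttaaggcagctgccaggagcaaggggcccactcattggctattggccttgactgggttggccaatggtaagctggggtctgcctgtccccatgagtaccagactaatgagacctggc
Fos: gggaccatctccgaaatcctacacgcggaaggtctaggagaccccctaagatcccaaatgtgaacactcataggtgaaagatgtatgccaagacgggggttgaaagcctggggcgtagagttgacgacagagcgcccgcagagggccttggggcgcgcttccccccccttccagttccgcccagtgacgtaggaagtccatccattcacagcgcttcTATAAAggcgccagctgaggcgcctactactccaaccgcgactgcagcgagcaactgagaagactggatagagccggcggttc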

How the data were processed

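The deposited files hold spot intensities that the authors made with Agilent Feature Extraction (10.5.1.1 per the file headers, 9.1 per the submitters' notes); the processed intensity is corrected for background within the array and not normalized between arrays. In R 4.3.3 and Python 3.11.15 with pandas 2.3.3 and NumPy 2.4.6, spots marked as outliers were dropped, the spots of a probe were averaged, and log2 values were shifted by the 75th percentile of each array. Dim intensities took the value of the faintest probe flagged as detected on the same array. A gene was its probe with the highest mean level over the 12 arrays and was tested if detected on 0.5 or more of either side's arrays. Of 40628 probes, 34524 matched a RefSeq gene by accession, symbol or synonym, and 382 of 387 list entries were on the array. Figures were drawn with matplotlib 3.10.9.

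The comparison was fitted with limma 3.58.1 with the diet as a fixed block, and genes with a Benjamini-Hochberg adjusted p under 0.05 and at least 2-fold were called. The diet block was checked: the correlation across genes of the deviations of arrays of the same diet from their group means ranged from -0.15 to 0.41 over 12 pairs. The fit was tested on simulated data. Week 15 against week 6 and the difference between diets came from models of the same 12 arrays. Named genes were the 4 markers, the 10 largest rises and 10 largest falls among called genes with a RefSeq match and no overlap, and for each list the 2 members with the highest mean level and the called members with the largest rise and fall. The lists cover adipocyte markers, adipokines, lipid droplet, synthesis, uptake, transcription factors, insulin, mitochondria, branched-chain amino acids, brown fat, receptors, stroma, matrix, macrophage, cytokines, immediate-early, heat shock, endothelium, pericyte, T cell, B cell, lymph node, neutrophil, mast cell, erythroid, muscle, epithelium, Schwann cell, cell cycle and housekeeping. The members and lists were chosen with earlier results of these data known.

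Alternatives changed the background correction (normexp, offset 50), normalization (quantile), floor, filter, probes, blocks, reference arrays and fold threshold, and left out each array in turn. The authors' table of fold changes was not used, since it is relative to the LFC arrays, and 2 arrays of week 18 were left out because their labels conflict. The week 9 HF75 file gives values rounded to 3 significant digits.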

Additional observations from a re-analysis of the deposited data

Results flagged for a closer look

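An array was marked as apart in a group of 4 when its gap to the nearest of the others was large against the range of the group (Dixon's test). Of 117 groups tested, 23 had such an array. For 4 replicates of 1 condition chance marks about 1 in 20 groups, but each group here held 4 diets. The groups also share arrays and genes, so the 23 cannot be set against that rate. The week 15 HF20 array was the one apart in 7 of the 23. In its group it was high for the mean log2 level of lipid droplet and lipolysis (4.02), fatty acid and triglyceride synthesis (2.56), insulin signalling and glucose uptake (1.98), mitochondrial oxidation (4.32) and branched-chain amino acid breakdown (2.94), and low for immediate-early genes (1.07) and Schwann cell and nerve genes (-0.89). What sets this array apart from its group was not tested.

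Among the WS arrays, LFC was high for fatty acid and triglyceride synthesis (3.56) and low for adrenergic and adenosine receptors (-2.27) and erythroid genes (-1.22). WS HFC was high for immediate-early genes (1.68), and WS HF20 was high for epithelial genes (-3.91).

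In week 6, the HFC array was low for fatty acid and triglyceride synthesis (-0.50), epithelial genes (-0.38) and Schwann cell and nerve genes (-1.20) and high for stromal progenitor and fibroblast genes (3.49). The LFC array was high for mitochondrial oxidation (3.29) and skeletal muscle (6.04). The HF20 array was low for endothelial genes (1.36) and had the highest ratio of signal to background (10.8). In week 15, HFC was high for B cell genes (1.096) and cell cycle genes (-0.51), and LFC had the lowest 75th percentile intensity (916).

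Arrays outside the 12, used only in an alternative reference, showed the WS pattern. On week 12 HF20, 96.8% of the genes that rose and 95.5% of those that fell were nearer the WS mean than the reference mean, and on week 12 LFC these were 92.5% and 93.9%. Neither title holds WS. On week 9 HF75 the shares were 5.88% and 39.4%. Why these arrays resemble the WS arrays was not tested.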

How the results depend on the processing

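The 1592 genes called (988 higher, 604 lower) stayed within 1.5 times that count under quantile normalization (1876), no floor (1538), genes well above background on all 12 arrays (1910), all probes (2089), HF75 arrays added to the reference (1727) and no fold threshold (1717). With no replicate block, the diet dropped from the model, the count was 2177. Normexp gave 389 (265 higher, 124 lower), of which 388 were among the 1592, and moved the median of all genes to 0.19. No filter gave 607 (373 and 234), a 4-fold threshold 712 (386 and 326), week 6 alone 5425 (2418 and 3007), and week 15 alone and weeks 3, 6, 12 and 15 gave 0 (0 and 0 each). The reference of weeks 3, 6, 12 and 15 held week 3 LFC, with only 17.2% of its probes well above background. It also held week 12 LFC and HF20, which showed the WS pattern. Slide as a random block gave 0 (0 and 0). In the fit with all arrays, 6762 genes had an unadjusted p under 0.05. Alternatives added after seeing the data were scan day as a random block, 0 (0 and 0), weeks 6 and 15 as levels of their own, 3862 (1720 and 2142), week 15 without its HF20 array, 5312 (2398 and 2914), and HF20 left out of all weeks, 3658 (1817 and 1841). Among genes called both in an alternative and in the fit with all arrays, none had the opposite direction, and no named gene reversed.

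Leaving out 1 array at a time gave from 0 to 4079 genes (0 to 2054 higher, 0 to 2025 lower). The count was 0 without week 6 LFC, HFC, HF5 or HF20, without week 15 LFC, HFC or HF5 and without WS HF5, 1 without WS LFC, 2 without WS HFC, 2341 (1085 lower) without WS HF20 and 4079 without week 15 HF20. The median difference of the 988 genes that rose was 1.77 with all arrays and between 1.65 and 2.001 in each of these fits, so the sizes moved less than the calls.

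For week 15 against week 6, 2773 genes (1041 higher, 1732 lower) became 1241 (515 and 726) with normexp and 1836 (986 lower) when only genes detected on all 12 arrays were kept. Leaving out 1 array gave 1423 to 3391 (485 to 1482 higher, 938 to 1909 lower), with 1423 without week 6 LFC, 1464 without week 6 HF5, and 581, 672 and 625 higher without week 15 LFC, HFC and HF5. The difference between diets stayed at 0 genes except without week 6 LFC, which gave 1, so its range was 0 to 1. It could not be fitted without WS LFC, and that fit was not run. Where 1 array remained on a side of a diet, it was assumed to vary like the others.

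Saturated spots hide the upper end of the scale, and the signal over background, from 4.56 to 10.8, limits what is seen near the floor. The causes of the moved counts were not tested, apart from fewer arrays or genes where the alternative itself has them.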

Other observations

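Genes outside the named ones and chosen after their values were seen extend the pattern of the WS arrays. Without week 15 HF20, genes with large rises included Gys2, the glycogen synthase of liver (8.47, SE 0.51, n = 4 and 7), Lgals12, a galectin of lipid droplets (8.08, SE 0.61), Slc7a10, an amino acid transporter (7.75, SE 0.41), Ces1f, a carboxylesterase (7.75, SE 0.42), and Pnpla3, a lipid droplet protein (7.45, SE 0.48). Gys2 and Lgals12 were well above background on only 4 and 5 of the 8 reference arrays, week 15 HF20 among them, so their sizes rest partly on the floor. Pnpla3 was at 4.57, 4.58, 3.56 and 3.74 on the WS arrays and Slc7a10 at 4.83, 4.26, 4.62 and 4.90. Ifnb1, which encodes interferon beta, fell in that fit (-7.49, SE 0.68), and it was at the detection floor on 3 of the 4 WS arrays, so this size is not exact.

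The epididymal transcripts of week 6 were not confined to the arrays compared. Spink8 was at 1.72 on the week 6 HF75 array, 3.598 on week 12 HF75, 0.97 on week 3 HF75 and 0.73 on week 3 HFC. Their source was not tested.

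On the arrays of the first days, HFC of day 1 had 77.4% of the genes that rose and 90.6% of those that fell nearer the WS mean, LFC of day 6 had 80.6% and 69.7%, and HFC of day 6 had 70.8% and 40.8%. LFC of day 1 had 10.7% and 18.2%. For week 3 LFC, the shares were 62.0% and 15.9%. This array had a high detection floor, a 75th percentile intensity of 8.12 and 17.2% of its probes well above background, so its place cannot be read.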
